A study of Homo sapiens with 6 samples.

Results

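AUTS2, SHANK1, RIMBP2, HTR1F, NCAM1 and ZDHHC15 are 6 genes best known from neurons, out of 23228 gene rows in 6 RNA-seq libraries. The labels give MDA-MB-231, a human cell line grown from a triple-negative breast cancer, as the source of all 6. Whether both groups are the same line was not tested, and differences between lines and between hairpins cannot be told apart here. The cells had received lentivirus with a short hairpin RNA (shRNA) against SCUBE3, a secreted protein with EGF-like domains, or with a scrambled shRNA, and both kinds were kept under puromycin. There were 3 libraries labelled shSCUBE3 and 3 labelled Scramble, and the labels do not say how many hairpins or separate cultures stand behind them. The 6 genes were chosen by their read counts, which lay almost wholly in the Scramble libraries of these same files, so their difference between the groups is given as a description with no test.

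These genes serve several steps of signalling between nerve cells. At a synapse, the presynaptic active zone holds calcium channels and vesicles together, the postsynaptic density anchors receptors opposite it, and adhesion molecules join both membranes, while palmitoylation, the attachment of a fatty acid to cysteines, sends many synaptic proteins to the membrane. AUTS2 is a nuclear protein that works with a variant of Polycomb repressive complex 1 (PRC1) and is linked to neurodevelopmental disorders. RIMBP2 ties calcium channels to RIM proteins at the active zone, and SHANK1 is a large scaffold of the postsynaptic density. HTR1F is a serotonin receptor coupled to inhibitory G proteins, NCAM1 (CD56) a cell adhesion molecule of the immunoglobulin superfamily, and ZDHHC15 a palmitoyltransferase.

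Promoter windows of 300 bases, from 250 before to 50 after an annotated start, are shown for AUTS2, HTR1F, RIMBP2 and ZDHHC15. No window was available for SHANK1 and NCAM1. The 4 genes shown are also those that had no read in any library labelled shSCUBE3. They are RefSeq sequences of GRCh38.p14, written along the gene's strand, while the reads were counted on hg19. Capitals mark the matches, on either strand, to 5 short motifs searched: the TATA box core TATAAA, the CCAAT box letters CCAAT, the GC box letters GGGCGG, the cAMP response core TGACG, and the letters GGACAG found within the REST element. For HTR1F and RIMBP2, which have 2 and 3 listed starts, the most upstream window is shown. The windows lie at chr7:69598225-69598524 on the plus strand for AUTS2, chr3:87792456-87792755 on the plus strand for HTR1F, chr12:130715524-130715823 on the minus strand for RIMBP2 and chrX:75522988-75523287 on the minus strand for ZDHHC15.
AUTS2: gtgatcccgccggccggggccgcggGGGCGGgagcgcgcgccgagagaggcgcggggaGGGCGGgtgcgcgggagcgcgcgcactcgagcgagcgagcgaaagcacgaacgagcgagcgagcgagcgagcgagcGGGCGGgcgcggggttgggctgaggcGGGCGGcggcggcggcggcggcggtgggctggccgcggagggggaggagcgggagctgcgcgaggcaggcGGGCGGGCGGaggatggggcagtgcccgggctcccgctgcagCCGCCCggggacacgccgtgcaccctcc
HTR1F: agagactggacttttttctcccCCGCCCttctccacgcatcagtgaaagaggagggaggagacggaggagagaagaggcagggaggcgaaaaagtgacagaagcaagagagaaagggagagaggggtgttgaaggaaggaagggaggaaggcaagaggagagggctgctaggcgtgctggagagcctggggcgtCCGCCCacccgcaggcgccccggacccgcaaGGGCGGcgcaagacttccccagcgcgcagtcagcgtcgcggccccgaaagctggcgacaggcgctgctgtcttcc
RIMBP2: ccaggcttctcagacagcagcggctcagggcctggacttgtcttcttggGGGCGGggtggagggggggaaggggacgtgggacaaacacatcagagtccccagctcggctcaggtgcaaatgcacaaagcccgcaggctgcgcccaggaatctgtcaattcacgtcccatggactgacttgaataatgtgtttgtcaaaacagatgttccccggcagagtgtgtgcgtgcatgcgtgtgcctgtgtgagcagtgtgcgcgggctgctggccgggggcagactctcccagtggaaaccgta
ZDHHC15: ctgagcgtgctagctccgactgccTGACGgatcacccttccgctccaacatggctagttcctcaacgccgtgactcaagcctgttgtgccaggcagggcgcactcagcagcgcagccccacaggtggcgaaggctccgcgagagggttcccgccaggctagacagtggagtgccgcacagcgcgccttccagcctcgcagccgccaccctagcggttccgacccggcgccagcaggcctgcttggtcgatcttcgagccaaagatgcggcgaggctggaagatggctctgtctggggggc

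The 4 windows differed widely in composition. AUTS2's had 82.3% G and C and 55 CpG dinucleotides, more than 99.6% of the 35116 promoter windows of all genes, whose medians were 58.7% and 14. ZDHHC15's window held 25 CpG, that of HTR1F 21 and that of RIMBP2 14. GGGCGG occurred at 7 places in AUTS2's window, at 3 in HTR1F's, at 1 in RIMBP2's and at 0 in ZDHHC15's, and at least once in 45.0% of all windows. ZDHHC15's single match was TGACG, which 24.6% of all windows hold. GGACAG occurred once in each of the downstream windows of RIMBP2 and in none of those shown, against 20.5% of all windows. TATAAA and CCAAT were found in none of the 7 windows listed for these genes, and in 11.5% and 34.6% of all windows. No motif was shared by the 4 windows shown.

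The hairpin's target SCUBE3 had similar read counts in either group, so shSCUBE3 is used here as a label only. It had 99, 107 and 101 reads in the libraries labelled shSCUBE3, against 96, 91 and 80 in Scramble, giving 0.03 ± 0.14 (SE) on the log2 scale with an adjusted p of 0.871 by edgeR's quasi-likelihood test. Reads in genes came to 24249429 to 25520901 per library labelled shSCUBE3 and 21348509 to 24234762 per Scramble library. Of 13606 genes tested, 43.4% were called higher and 42.5% lower in the libraries labelled shSCUBE3 at an adjusted p under 0.05, with a median log2 fold change of 0.01, so a call by itself is common in these data. Of 17 genes listed as high or low in this line, 16 were tested, 7 higher and 8 lower, and some had few or no reads in a group. Levels are given as reads per 1000000 reads in genes after scaling of the library size, or CPM. Among genes listed as high in the line, VIM was read in both groups (means of 2394 CPM labelled shSCUBE3 and 4370 CPM in Scramble). S100A4 had 562 ± 7.41 CPM labelled shSCUBE3 and 2.58 ± 0.679 CPM in Scramble (SD, n = 3 each), and LGALS1 was higher (log2 fold change 2.73 ± 0.04). MSN, FOSL1, EGFR and AXL, also listed as high, were lower (log2 fold change -1.15 ± 0.03, -1.07 ± 0.03, -0.84 ± 0.04 and -0.17 ± 0.03). CAV1 and CD44, the others listed as high, were higher (1.10 ± 0.03 and 0.86 ± 0.03). Among genes listed as low in the line, FOXA1 had 1, 1 and 2 reads labelled shSCUBE3 and 480, 490 and 486 in Scramble. PGR had 0, 0 and 0 labelled shSCUBE3 and 25, 18 and 23 in Scramble. CDH1 had 42, 52 and 58 labelled shSCUBE3 and 1, 2 and 0 in Scramble. ERBB2, GATA3, EPCAM and ERBB3, also listed as low, were read in both groups. Their means were 92.2, 15.5, 15.4 and 5.86 CPM labelled shSCUBE3 and 53.4, 5.91, 14.6 and 12.2 CPM in Scramble. ESR1, the last listed as low, had 0, 0 and 0 reads labelled shSCUBE3 and 3, 1 and 4 in Scramble. The part of these differences in those of the 6 genes was not tested.

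In total, 5 reads of the 6 genes were counted in the libraries labelled shSCUBE3 (0, 2 and 3 reads), against 2515, 2068 and 2245 in Scramble. All 6 genes lay lower in every library labelled shSCUBE3 than in any Scramble library, a separation that the choice of genes fixed and that 42.5% of all tested genes share. All 6 passed the filter on low counts, and they did so through their Scramble reads. Levels in CPM are scaled by library size and the TMM factor (edgeR's trimmed mean of M values).

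AUTS2 had 0, 0 and 0 reads in the libraries labelled shSCUBE3, against 616, 483 and 506 reads in Scramble. The Scramble libraries averaged 23.9 ± 1.75 CPM (SD, n = 3), with replicate 1 the highest. Set against a floor of 3 reads over the group (0.0397 CPM, counting error only), its level with shSCUBE3 was at least 604-fold lower.

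RIMBP2, the active-zone protein, likewise had no read in the libraries labelled shSCUBE3 and 201, 178 and 173 reads in Scramble. Its Scramble level was 8.25 ± 0.399 CPM (SD, n = 3), and it was at least 208-fold lower with shSCUBE3. The 3 Scramble libraries lay close together, with a coefficient of variation of 4.84% where counting error alone gives 7.37%.

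SHANK1, the postsynaptic scaffold, kept a trace in the libraries labelled shSCUBE3, with 0, 1 and 3 reads, against 1109, 906 and 1068 in Scramble. That is 0.0533 ± 0.0620 CPM labelled shSCUBE3 and 46.0 ± 2.50 CPM Scramble (SD, n = 3 each). The ratio of summed reads made it 870-fold lower in the libraries labelled shSCUBE3, with an exact 95% counting interval from 340 to 3197. Because 3 of its 4 reads there came from replicate 3, the ratio was 2337 without that library.

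HTR1F, the serotonin receptor, had 0, 0 and 0 reads in the libraries labelled shSCUBE3 and 195, 169 and 195 reads in Scramble. Its Scramble level of 8.35 ± 0.377 CPM (SD, n = 3) left the libraries labelled shSCUBE3 at least 210-fold lower, again with no overlap between the groups.

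NCAM1, the adhesion molecule, had 0, 1 and 0 reads in the libraries labelled shSCUBE3, against 259, 226 and 193 reads in Scramble. Scramble replicate 3 was the lowest at 8.68 CPM, beside 10.9 and 10.8 CPM in replicates 1 and 2, the widest spread among the 6 genes (coefficient of variation 12.3%, counting error 6.65%). The ratio of summed reads made NCAM1 766-fold lower in the libraries labelled shSCUBE3 (exact 95% counting interval 137 to 30287). It rests on 1 read: without shSCUBE3 replicate 2 the group was at 0 and NCAM1 was at least 167-fold lower.

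ZDHHC15, the palmitoyltransferase, had 0, 0 and 0 reads in the libraries labelled shSCUBE3 and 135, 106 and 110 reads in Scramble. Its Scramble level was 5.23 ± 0.396 CPM (SD, n = 3), and the libraries labelled shSCUBE3 were at least 132-fold lower.

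**Figure D1:**
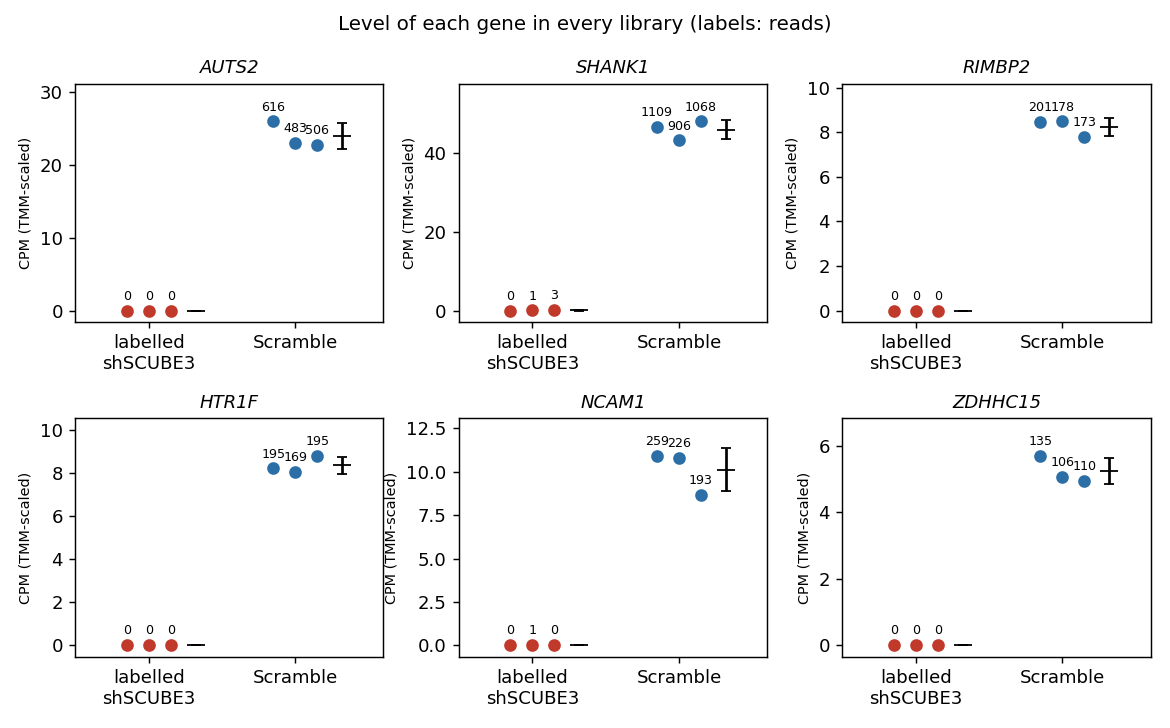
Level of the 6 genes in each library, in CPM on a linear axis of its own for each gene, with the read count above each point; bars give the mean and SD of 3 libraries. The libraries labelled shSCUBE3 lie at 0 to 3 reads, while Scramble libraries hold 106 to 1109.

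Among themselves, the 6 genes had similar proportions across the Scramble libraries. SHANK1 took 44.1%, 43.8% and 47.6% of their joint reads in Scramble replicates 1 to 3, AUTS2 24.5%, 23.4% and 22.5%, and ZDHHC15 5.37%, 5.13% and 4.90%. Between Scramble libraries, the chi-square per degree of freedom was 2.95, 2.91 and 3.43 for AUTS2, SHANK1 and NCAM1, where counting error alone gives about 1. It was 0.429, 0.373 and 0.691 for RIMBP2, HTR1F and ZDHHC15. Each value rests on only 3 libraries, too few to set these genes apart. Pairs of Scramble libraries gave 2.77 to 3.55 over 12995 to 13049 genes.

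To rank the 6 genes by level, CPM was taken per kilobase. With the joint length of all annotated exons, SHANK1 was highest in Scramble at 6.08 ± 0.330 CPM per kb (SD, n = 3), followed by HTR1F at 2.66 ± 0.120 and AUTS2 at 0.988 ± 0.0725. RIMBP2 at 0.854 ± 0.0414, NCAM1 at 0.795 ± 0.0979 and ZDHHC15 at 0.767 ± 0.0581 followed, and each overlapped the next in that order. Per kilobase of the longest transcript, SHANK1 stayed highest at 6.92 CPM per kb, but AUTS2 (3.41) came above HTR1F (2.66) and NCAM1 (1.67) above RIMBP2 (1.30), and ZDHHC15 was at 0.870. Which transcripts the cells made is not given by gene counts, so the order below SHANK1 depends on the length used.

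**Figure D2:**
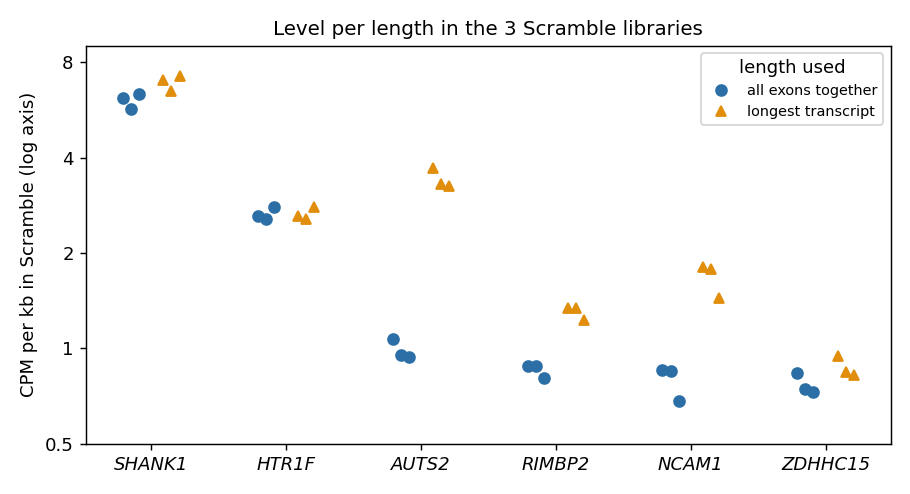
CPM per kilobase (log axis) of the 6 genes in the 3 Scramble libraries, by 2 definitions of length; each point is 1 library. SHANK1 is highest by both, and AUTS2 moves above HTR1F when the longest transcript is used.

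Whether the relatives and partners of each gene were read in the same libraries was examined in lists that leave the 6 genes out. Among 12 AUTS2 paralogues and PRC1 partners, all tested, 5 were higher and 6 lower in the libraries labelled shSCUBE3, with a median log2 fold change of -0.15. The paralogue FBRSL1 had 435, 502 and 479 reads labelled shSCUBE3 and 915, 837 and 1022 reads in Scramble, a log2 fold change of -1.15 ± 0.07 (SE; edgeR adjusted p = 1.09e-18). The other paralogue, FBRS, had 55.8 ± 0.811 CPM labelled shSCUBE3 and 56.1 ± 3.28 CPM in Scramble (SD, n = 3 each; edgeR adjusted p = 0.894). PCGF3 and PCGF5, the RING-finger subunits of the PRC1 variant that AUTS2 joins, were higher (log2 fold change 0.43 ± 0.05 and 0.33 ± 0.04), and the casein kinase 2 catalytic subunit gene CSNK2A2 was lower (-1.37 ± 0.06). All 12 averaged over 1 CPM in both groups.

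Active-zone genes moved in both directions. Of 34 relatives and partners of RIMBP2, 24 were tested, 12 higher and 11 lower, with a median log2 fold change of -0.12. The RIM gene RIMS2, whose protein RIMBP2 binds, had 112, 118 and 139 reads labelled shSCUBE3 and 959, 814 and 781 reads in Scramble (log2 fold change -2.96 ± 0.09, SE; edgeR adjusted p = 9.12e-29). The large active-zone scaffold gene PCLO had 7.59 ± 0.189 CPM labelled shSCUBE3 and 37.4 ± 1.73 CPM in Scramble (log2 fold change -2.30 ± 0.07), and the liprin gene PPFIA2 0.516 ± 0.290 CPM labelled shSCUBE3 and 8.98 ± 1.35 CPM in Scramble (SD, n = 3 each). Others went the opposite way: the liprin gene PPFIA4 had 5.95 ± 0.406 CPM labelled shSCUBE3 and 0.710 ± 0.180 CPM in Scramble, and the calcium sensor gene SYT2 68, 61 and 70 reads labelled shSCUBE3 and 3, 2 and 3 in Scramble. RIMBP2's paralogue TSPOAP1, listed in the files as BZRAP1, was higher (log2 fold change 0.75 ± 0.11). RIMBP3 had 0.290 ± 0.0529 CPM labelled shSCUBE3 and 0.632 ± 0.217 CPM in Scramble (edgeR adjusted p = 0.0135), a call lost with DESeq2 and without replicate 3 of either group, and its reads may be split with near-identical copies.

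Postsynaptic genes also moved in both directions. Of 29 SHANK relatives and postsynaptic density genes, 18 were tested, 7 higher and 9 lower, with a median log2 fold change of -0.55. SHANK2 had 249, 262 and 258 reads labelled shSCUBE3 and 1153, 941 and 1021 reads in Scramble, or 10.2 ± 0.237 CPM labelled shSCUBE3 and 46.5 ± 1.88 CPM in Scramble (SD, n = 3 each; log2 fold change -2.19 ± 0.07, edgeR adjusted p = 3.95e-28). SHANK3 was higher in the libraries labelled shSCUBE3, with 15.3 ± 0.943 CPM against 9.22 ± 0.705 CPM in Scramble. The 3 SHANK genes thus differed between the groups in both directions, and SHANK1 alone of them was at trace level in a group. HOMER2 and DLG4, whose proteins link SHANK scaffolds to glutamate receptors, were lower (log2 fold change -1.70 ± 0.07 and -1.47 ± 0.07). The related genes HOMER1 and DLG3 were also lower (-1.08 ± 0.07 and -1.16 ± 0.06), but HOMER3 and DLG1 were higher (0.56 ± 0.06 and 0.87 ± 0.04). The glutamate receptor gene GRM5 had 13, 6 and 12 reads labelled shSCUBE3 and 120, 97 and 106 reads in Scramble.

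Of 19 other genes for serotonin receptors, transport and turnover, 8 had 0 reads in all 6 libraries and 6 could be tested, 3 higher and 2 lower. HTR1A and HTR1E, receptors of HTR1F's own class, had no read, and HTR1B had 2 reads in all. HTR1D, the remaining member of that class, was read in both groups, with 118, 124 and 138 reads labelled shSCUBE3 and 66, 68 and 51 in Scramble (log2 fold change 0.86 ± 0.15, edgeR adjusted p = 3.01e-06). HTR2C, a receptor coupled to another G protein, had 0, 0 and 0 reads labelled shSCUBE3 and 70, 60 and 54 in Scramble, at least 69.3-fold lower. HTR7 was lower (12.0 ± 0.682 labelled shSCUBE3, 25.9 ± 0.636 CPM Scramble; SD, n = 3 each). MAOB, a monoamine oxidase gene, was the reverse of HTR1F, with 21, 21 and 23 reads labelled shSCUBE3 and 0, 0 and 0 in Scramble, at least 19.2-fold higher.

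Of 16 genes of the NCAM and L1 adhesion families and of polysialylation, 8 were tested, 3 higher and 5 lower, with a median log2 fold change of -0.89. NCAM2 had 6, 11 and 9 reads labelled shSCUBE3 and 45, 23 and 39 reads in Scramble (log2 fold change -2.20 ± 0.32, edgeR adjusted p = 8.38e-08). CNTN5, a contactin gene, had 1, 1 and 2 reads labelled shSCUBE3 and 84, 66 and 79 in Scramble, and NRCAM had 25, 32 and 19 labelled shSCUBE3 and 128, 81 and 85 in Scramble. L1CAM, a neural adhesion gene often read in carcinoma, had 265 ± 5.67 CPM labelled shSCUBE3 and 12.4 ± 1.62 CPM in Scramble (SD, n = 3 each; log2 fold change 4.42 ± 0.05, edgeR adjusted p = 1.87e-40), opposite to NCAM1. ST8SIA4, which adds polysialic acid to NCAM1, had 55, 67 and 87 reads labelled shSCUBE3 and 163, 131 and 148 in Scramble, while ST8SIA2, the other enzyme of that step, had none in any library.

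Palmitoyltransferase genes were mostly read in both groups. Of 30 ZDHHC relatives, their partner and thioesterases, 29 were tested, 16 higher and 10 lower, with a median log2 fold change of 0.13. Of the enzymes closest to ZDHHC15, ZDHHC2 had 63.9 ± 2.87 CPM labelled shSCUBE3 and 43.3 ± 1.75 CPM in Scramble, and ZDHHC20 had 105 ± 4.61 CPM labelled shSCUBE3 and 116 ± 1.78 CPM in Scramble (SD, n = 3 each). ZDHHC22 had 0, 0 and 0 reads in the libraries labelled shSCUBE3 and 106, 86 and 110 in Scramble, at least 114-fold lower, the one other gene of that list without a read in a single group. ZDHHC9, the palmitoyltransferase of RAS proteins, was higher (log2 fold change 1.19 ± 0.05) and ZDHHC21 lower (-1.38 ± 0.07).

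**Figure D3:**
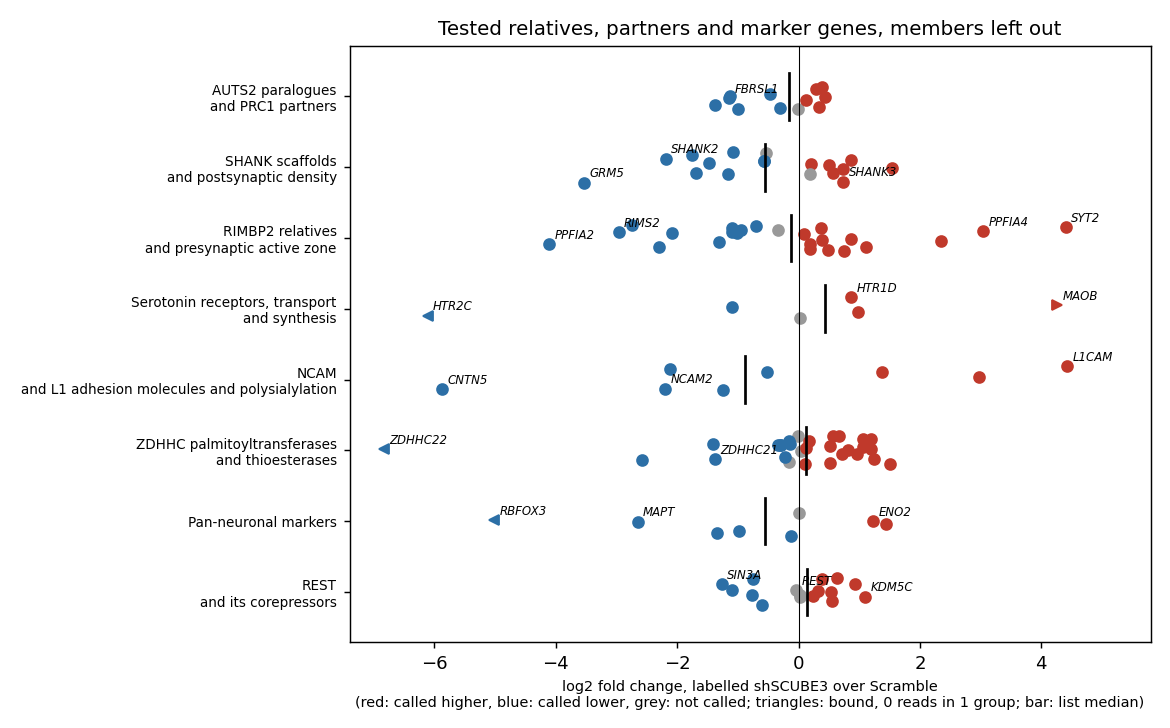
Log2 fold change, labelled shSCUBE3 over Scramble, of tested genes in 8 lists without the 6 genes; each point is 1 gene and the black bar the list median. Most lists spread to both sides of 0, and ZDHHC22, HTR2C, RBFOX3 and MAOB are drawn as bounds because a group had no read.

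General markers of neurons were mostly unread or low in both groups. Of 26 pan-neuronal markers, 11 had 0 reads in all 6 libraries, among them DCX, STMN2, ELAVL4, NEFL, NEFM, GAP43 and UCHL1. Their summed level was 193 to 209 CPM per library labelled shSCUBE3 and 142 to 149 CPM per Scramble library, most of it from ENO2 and TUBB3. Of 8 tested, 2 were higher and 5 lower. RBFOX3, which encodes the neuronal nuclear antigen NeuN, had 0, 0 and 0 reads labelled shSCUBE3 and 29, 24 and 33 in Scramble, at least 32.4-fold lower. MAPT, which encodes tau, had 0.725 ± 0.253 CPM labelled shSCUBE3 and 4.61 ± 0.799 CPM in Scramble (SD, n = 3 each; log2 fold change -2.65 ± 0.22), whereas ENO2 and SYP were higher (1.23 ± 0.04 and 1.45 ± 0.30).

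REST, a repressor that holds neuronal genes silent outside the nervous system, had 1405, 1520 and 1435 reads labelled shSCUBE3 and 1445, 1231 and 1302 reads in Scramble, or 57.7 ± 1.22 CPM labelled shSCUBE3 and 59.4 ± 1.26 CPM in Scramble (SD, n = 3 each). Its log2 fold change of -0.04 ± 0.05 (SE) did not pass the test (edgeR adjusted p = 0.393), and turned to 0.01 when library totals alone set the scale. Of 16 genes for REST and its corepressors, 8 were higher and 5 lower, among them the histone demethylase gene KDM5C (1.09 ± 0.04) and the scaffold gene SIN3A (-1.26 ± 0.04). RNA levels alone do not show how much REST protein was bound at any gene.

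Markers of other cells that express some of the 6 genes were examined as well. Of 16 natural killer and T cell markers, relevant because NCAM1 marks natural killer cells, 8 had 0 reads in all libraries and only CD8A could be tested (2.30 ± 0.340 labelled shSCUBE3, 2.72 ± 0.772 CPM Scramble; edgeR adjusted p = 0.223). Their summed level was 2.08 to 2.78 CPM labelled shSCUBE3 and 2.10 to 3.83 CPM in Scramble, with NKG7, GZMB, NCR1 and CD3D at 0. Of 16 glial markers 7 were tested, 4 higher and 2 lower, with 264 to 268 CPM summed in the libraries labelled shSCUBE3 and 191 to 195 CPM in Scramble, mostly from MBP and PMP22. SOX10, S100B and AQP4 had no read. GFAP, an astrocyte filament gene, had 110, 147 and 103 reads labelled shSCUBE3 and 1, 0 and 1 in Scramble. What part a mixture of cells has in the levels of the 6 genes was not tested, and in bulk RNA fewer cells with a transcript and less of it per cell cannot be told apart.

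**Figure D4:**
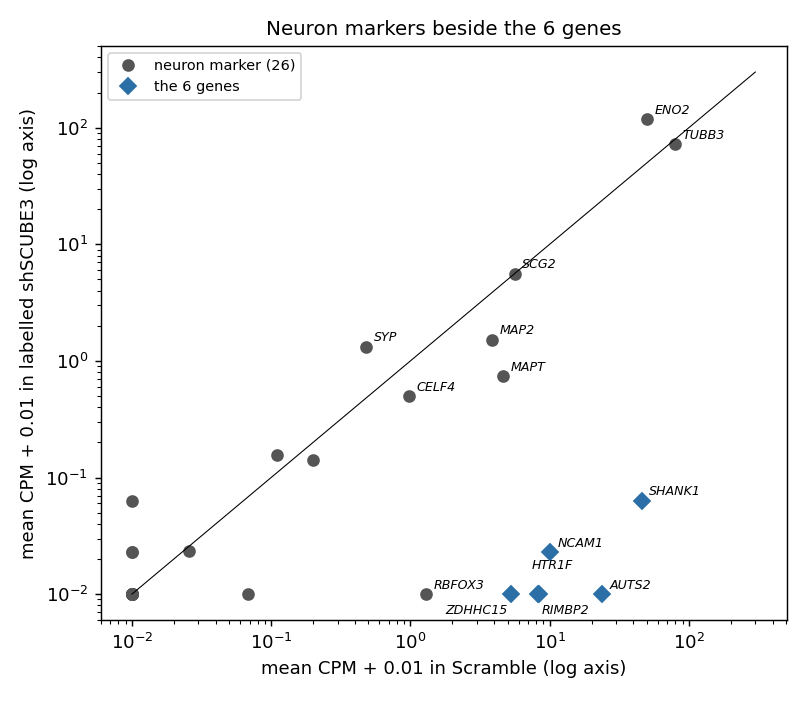
Mean CPM plus 0.01 in the libraries labelled shSCUBE3 (vertical) and Scramble (horizontal), both on log axes, for 26 neuron markers and the 6 genes; the line marks equal levels. Named markers other than RBFOX3 lie within an order of magnitude of the line, the 6 genes lie along the bottom, and 11 markers share the lower left corner.

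The 6 genes lie on 6 chromosomes, 7, 19, 12, 3, 11 and X. To see whether their pattern was shared by what lies beside them, the 5 nearest protein-coding genes on each side were taken in RefSeq order. Of 60 neighbours 53 were matched in the files and 31 tested, of which 15 were lower (48.4%) and 11 higher (35.5%), beside 42.5% and 43.4% of all genes. The neighbours named next were read in both groups. UPRT, next to ZDHHC15, had 19.1 ± 1.25 CPM labelled shSCUBE3 and 33.2 ± 3.61 CPM in Scramble (SD, n = 3 each), and RLIM, a ubiquitin ligase gene also near ZDHHC15, 150 ± 2.55 CPM labelled shSCUBE3 and 361 ± 19.9 CPM in Scramble. CGGBP1, next to HTR1F, had 131 ± 2.07 CPM labelled shSCUBE3 and 143 ± 6.22 CPM in Scramble, and TTC12, next to NCAM1, 788, 870 and 760 reads labelled shSCUBE3 and 794, 776 and 784 in Scramble, the calls of both being lost when library totals set the scale. The adjacent genes of AUTS2 and SHANK1 that had a row were nearly unread, GALNT17 (WBSCR17 in the files) with 0 reads in all libraries and CLEC11A with 1 read labelled shSCUBE3 and 7 in Scramble.

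RIMBP2 had a neighbour with its own pattern. PIWIL1, its neighbour and a germline gene of the PIWI-interacting RNA pathway, had 1, 0 and 0 reads labelled shSCUBE3 and 262, 191 and 225 in Scramble, a ratio that made it 766-fold lower with an exact 95% counting interval from 137 to 30287. On RIMBP2's other side, STX2 had 1328, 1409 and 1272 reads labelled shSCUBE3 and 837, 721 and 822 in Scramble (log2 fold change 0.58 ± 0.05, edgeR adjusted p = 6.05e-13). RIMBP2 and PIWIL1 thus shared the near absence under the shSCUBE3 label, and STX2 did not. Of RIMBP2's 5 tested neighbours, 3 were lower, PIWIL1 among them, and 2 were higher, STX2 and SLC15A4 (log2 fold change of SLC15A4 0.69 ± 0.06). Of all 13606 tested genes, 146 were called lower by at least 5 on the log2 scale. Beyond PIWIL1, FZD10 and GLT1D1 had no read in any library. Some neighbours of the other genes were too low to test but had reads only in Scramble. CADM2, near HTR1F, had 0, 0 and 0 reads labelled shSCUBE3 and 12, 7 and 15 in Scramble, at least 12.8-fold lower. CALN1, near AUTS2, had 0, 0 and 0 reads labelled shSCUBE3 and 8, 7 and 2 in Scramble, at least 6.40-fold lower. ANKK1, near NCAM1, and MAGEE2, near ZDHHC15, had reads only under the shSCUBE3 label, 1 each.

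**Figure D5:**
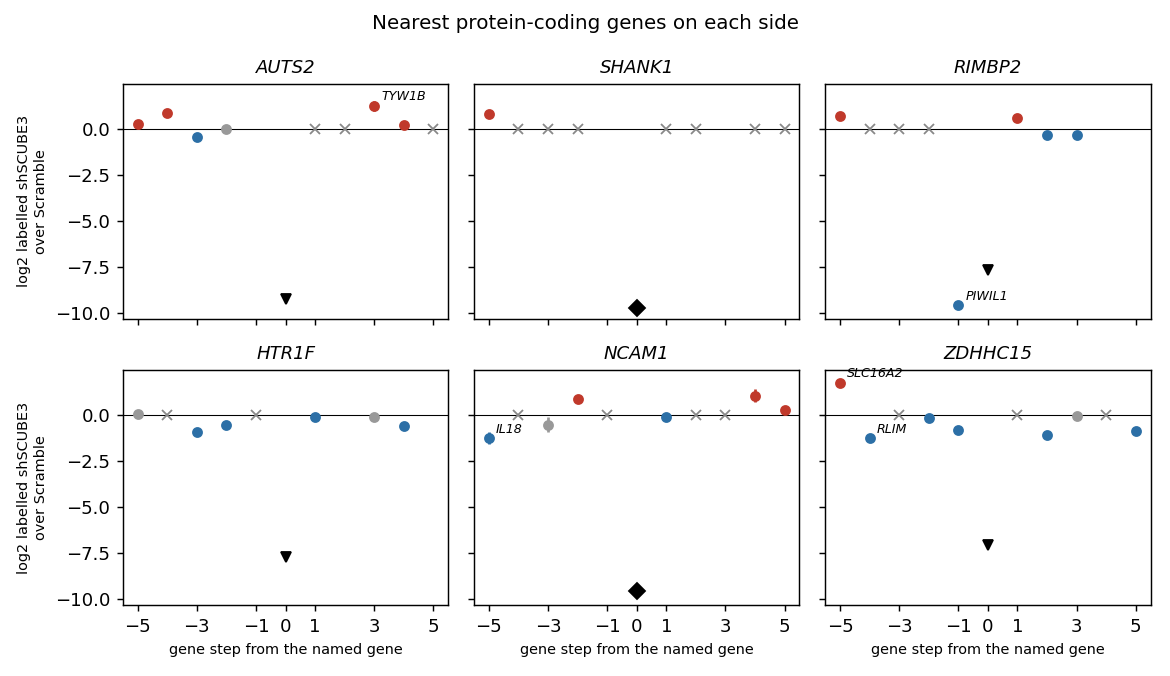
Log2 ratio, labelled shSCUBE3 over Scramble, of the 5 nearest protein-coding genes on each side of each of the 6 genes (black, at step 0; triangles are bounds, diamonds ratios of reads). Red and blue are called higher and lower, grey is not called, and bars are SE. Crosses are genes with too few reads to test, drawn at 0 whatever their reads. They include CADM2 near HTR1F and CALN1 near AUTS2, which had reads only in Scramble. Among tested neighbours, only PIWIL1 lies near the black symbols.

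For each of the 6 genes, the genes with the most similar levels over the 6 libraries were sought. Likeness was the Euclidean distance between log2(CPM + 0.5) values, over all tested genes and with no scaling by gene length. RIMBP2 and HTR1F were each other's closest gene, at a distance of 0.18 and with no other gene nearer. Neither had a read in the libraries labelled shSCUBE3, so this distance reflects only their Scramble levels in CPM. For AUTS2 the closest outside the 6 were FGF13 (distance 0.31), an intracellular growth factor homologue of neurons with 0, 0 and 0 reads labelled shSCUBE3 and 683, 544 and 590 in Scramble, then the cadherin gene CDH18 (0.36) and the pioneer factor gene FOXA1 (0.45), one of the genes listed as low in this line. For SHANK1 they were CD96, FOXR2 and ESM1 (0.45, 0.72 and 0.87). RIMBP2 and HTR1F shared LOC400655 and the actin regulator gene ABI3 among their 3 closest, joined by SAMSN1 for RIMBP2 and the synaptic adhesion gene SLITRK4 for HTR1F. NCAM1 lay nearest SAMSN1 (0.28), PIWIL1 (0.35) and the myeloid receptor gene CD33 (0.44). ZDHHC15 lay nearest C20orf197 (0.26), ZDHHC22 (0.42) and NCKAP1L (0.47), a WAVE complex gene of blood cells. The distances rest on a single contrast between 2 groups of libraries. The 6 genes were chosen on that contrast, so their likeness to each other follows in part from the choice.

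The 6 genes are a few among many with this pattern. Of 12277 genes with a mean of at least 1 CPM in Scramble, 69 (0.562%) had at most 4 reads over the libraries labelled shSCUBE3, the highest sum among the 6, and 30 had none. That limit was set from the values of the 6 genes, which are therefore among the 69 by construction. At the limit itself stood 11 genes with 4 reads, and 29 more had 5 to 8.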

How the data were processed

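Polyadenylated RNA was measured in 3 libraries labelled shSCUBE3 and 3 labelled Scramble. Per the labels' protocols, a stranded mRNA kit and single reads were used. The tools named in the submitters' processing notes are HTSeq, TopHat2 2.0.8b and bcl2fastq, with genome build hg19; HTSeq's strand option is not given in the sources used here, nor is its annotation, and overlapping or antisense genes may share reads. The authors deposited raw read counts by gene symbol; the HTSeq summary lines were left out.

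Genes kept by filterByExpr were scaled by TMM and fitted with edgeR 4.0.16 in R 4.3.3 (robust quasi-likelihood F test, two-sided, group as the only term, Benjamini-Hochberg over all 13606 genes, threshold 0.05). SE is the fold change over the root of F. Bounds use 3 reads over a group at 0; counting intervals are exact, 95%, and cover counting error only, since reads carry no molecular identifiers. The p-values weigh the difference between the groups against the spread among these libraries. Replicates are not said to be separate cultures, so the p-values do not cover variation between cultures or hairpins. Exon lengths came from GENCODE 29 (GRCh38), and promoters and gene order from RefSeq GRCh38.p14. Older symbols matched 4 list genes.

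The 6 genes, the 11 gene lists and the naming rule were chosen with earlier results of these data known. Named genes are the 6, SCUBE3, up to 5 per list by adjusted p, fixed paralogues, REST, adjacent genes and the 3 most alike; others, among them CD8A, LGALS1, PGR, CDH1, GRM5, SYT2, PPFIA4, PCGF3, PCGF5, ST8SIA4, and RLIM, and markers named at 0, were chosen after their values were seen. No pair of libraries in a group matched within counting error (1.69 to 3.55 chi-square per degree of freedom). The fit was tested on simulated data with 200 changed genes, and recovered 54% of those changed 1.2-fold and 100% of those changed 4-fold. Far fewer genes changed there than were called here, so it does not show how the scaling behaves when most genes differ. Alternatives were other scalings, filters, DESeq2 1.42.0, limma-voom 3.58.1, a replicate block, a threshold of 0.01 and leaving out each library.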

Additional observations from a re-analysis of the deposited data

How the results depend on the processing

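The count of called genes, 11681 of 13606, ran from 11065 (adjusted p under 0.01) to 12483 (no filter) over the settings tried, and the counts in each gene list and among neighbours stayed within 1.5 times, except that natural killer and T cell markers had 0 to 1 calls when single libraries were left out (CD8A, log2 fold change -0.43, without Scramble replicate 2). Same-numbered libraries deviated together little (Pearson's r 0.0557, 0.0419 and 0.00108 across genes). No clear pairing by number was seen, but 3 libraries per group are too few to exclude it. With the replicate number as a block 11706 genes were called. The log2 fold change of FBRS changed sign with library totals (0.044) and ran from -0.062 to 0.016 when single libraries were left out. REST reached 0.0089 with library totals, and SCUBE3 ran from -0.050 (without Scramble replicate 3) to 0.080. CGGBP1 and TTC12 lost their calls with library totals (-0.076 and -0.087), TTC12 also with DESeq2 and 3 of the libraries left out. With a floor of 3 reads per library instead of per group, the log2 bounds were -7.65 for AUTS2, -6.11 for RIMBP2, -6.13 for HTR1F and -5.46 for ZDHHC15. The log2 ratio of SHANK1 ran from -11.19 to -9.18 and that of NCAM1 from -9.69 to -7.39 when single libraries were left out, which was added after seeing the data. The cause of these shifts was not tested.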
